A study of Mus musculus with 12 samples.

Results

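The genes described here are Trp53, which encodes the tumour suppressor p53, and 7 of its long-established target genes: Mdm2, Ccng1, Trp53inp1, Cdkn1a, Bbc3, Phlda3 and Zmat3. They were taken by name, and they make up 8 of the 22556 genes in the files. All 8 were found by symbol and all 8 passed the filter on low counts. None of them lies on the X chromosome.

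The data are chromatin-associated RNA (ChrRNA-seq) from mouse embryonic stem cells (mESCs), 12 libraries in all, with reads counted per gene in total and for each parental genome where a read could be assigned. All 12 come from iXist-ChrX, a female hybrid line with 1 genome of 129S origin and 1 of Castaneus origin. A TetOn promoter had been put in place of the endogenous Xist promoter on the 129S allele, so that doxycycline (Dox) switches Xist on from that chromosome. The states compared are no Dox (0 h) and 24 h of Dox.

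WT is iXist-ChrX with no Xist deletion and has 1 library per state, so its values have no replicate check and were not tested. XistΔAprec, labelled XistDelA, lacks the A-repeat of Xist and is represented by 3 clones, C1, 2C2 and C11, each without and with Dox. The labels do not say whether each clone carries the precise deletion or a larger one of the A-repeat, and although the titles name all 3 clones alike, the deposited count data of C11 bear another tag for the deletion, so the name XistΔAprec is used here for all 3 clones without that being settled. XistΔm6A/11C, labelled XistDelm6A/T1_11C, lacks the region of Xist that carries its upstream m6A and is 1 cell line with 2 numbered replicates per state. All of these lines carry the TetOn promoter, and the lines were maintained on mitomycin-inactivated mouse fibroblasts that were removed by pre-plating before RNA was taken. The XistΔm6A/11C libraries are numbered apart from the other 8, so library set and line cannot be told apart.

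Total counts on genes per library were 27022431 and 27795782 in WT without and with Dox. They were 25742430 and 27489603 in clone C1, 22949578 and 27300014 in clone 2C2, and 26081951 and 27469878 in clone C11. XistΔm6A/11C replicate 1 had 21551628 and 36007145, and replicate 2 had 18893447 and 21079263. Levels below are CPM, each count relative to its library's size after scaling by the trimmed mean of M-values (TMM). Reads were counted over whole gene spans, introns included.

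p53 is a transcription factor that is kept scarce in unstressed cells because Mdm2 marks it for degradation. When DNA is damaged p53 protein accumulates and switches on genes that halt the cell cycle, repair DNA, kill the cell or, as with Mdm2 itself, restrain p53 again. Mouse embryonic stem cells carry abundant p53 and tolerate little damage, and p53 is known to slow growth after a genome has been cut by an editing nuclease or has gained a chromosome.

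Xist RNA was the check on induction. It rose from 303 to 5481 CPM in WT, from 127 to 1559 in clone C1, from 132 to 1274 in clone 2C2 and from 163 to 1642 in clone C11. In XistΔm6A/11C it rose from 91.6 to 2755 CPM in replicate 1 and from 85.6 to 4849 in replicate 2. All 6 libraries with Dox lay above all 6 without it, as their labels state. Of the Xist counts assigned to a parent, 98.2% to 99.9% came from genome 2 in each library, which marks genome 2 as 129S and genome 1 as Castaneus.

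The cells were checked against 10 markers of ES cells, of which 9 were detected in every library. Their summed level was 2130.1 and 2154 CPM in WT without and with Dox, 2126 and 2105 in clone C1, 2293 and 2381 in clone 2C2, and 2289 and 2308 in clone C11. XistΔm6A/11C summed to 1842 and 2152 CPM in replicate 1 and 1706 and 1737 in replicate 2, with Zfp42 or Esrrb the most abundant marker in each of the 12 libraries. Sox2 stood at 0 in all 12 libraries. Its whole span lies inside the same-strand gene Sox2ot, and reads that overlap 2 genes on a strand may go uncounted.

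Without Dox both replicates of XistΔm6A/11C thus had a lower sum than WT and all 3 clones, and single ES-cell markers moved with Dox in the clones. With Dox in XistΔAprec and clone entered as a block, so that each clone is compared with itself, edgeR's quasi-likelihood test (Benjamini-Hochberg) called 6 of the 9 markers tested, beside 29.0% of all genes. Zfp42 was higher by a log2 change of 0.41 (adjusted p 1.71e-07) in 3 of 3 clones, and Tdgf1 (−0.44, 7.13e-07), Klf4 (−0.33, 5.39e-05), Tfcp2l1 (−0.31, 1.08e-05), Dppa5a (−0.29, 0.000837) and Pou5f1 (−0.17, 0.0452) were lower, each in 3 of 3 clones, in edgeR's quasi-likelihood test (Benjamini-Hochberg). Without clone C1 Dppa5a and Pou5f1 were not called, at adjusted p values of 0.0941 and 0.700 in edgeR's quasi-likelihood test (Benjamini-Hochberg), within 8.9e-12 to 0.0941 and 0.000905 to 0.700 over 5 alternatives. Pou5f1 was also not called by DESeq2 with the block (Benjamini-Hochberg adjusted p 0.117). Dppa5a was thus called in 4 of 5 alternatives and Pou5f1 in 3 of 5. With no block edgeR's quasi-likelihood test (Benjamini-Hochberg) called 0 of the 9 and DESeq2 called 2, Zfp42 and Tdgf1 (Benjamini-Hochberg adjusted p 0.000202 and 0.0401). Between the lines without Dox, where 19.8% of all genes were called, Klf4 was lower in XistΔm6A/11C by a log2 difference of −1.34 (adjusted p 0.00136), with 2 of 2 replicates below all 3 clones, and Utf1 was higher by 1.10 (0.012), with 2 of 2 above, in edgeR's quasi-likelihood test (Benjamini-Hochberg). Without clone 2C2 the adjusted p of Utf1 was 0.0977 in that test, within 0.000564 to 0.0977 over 10 alternatives. With Dox, where 16.6% of all genes were called, Utf1 was called higher and Klf4, Nanog and Dppa5a lower. Utf1 and Klf4 were called in all 10 alternatives, Nanog in 6 and Dppa5a in 5. In edgeR's quasi-likelihood test (Benjamini-Hochberg) the adjusted p of Nanog was 0.166 without 2C2, 0.169 without C11 and 0.0727 without XistΔm6A/11C replicate 2, within 0.00942 to 0.169, and that of Dppa5a was 0.0861 without C1, 0.144 without 2C2, 0.0838 without C11 and 0.0922 without replicate 2, within 0.00373 to 0.144. Both were also not called in a fit on the 5 libraries of that state. These markers were named after their values were seen, and their part in the changes of p53 targets below was not tested.

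Of 10 fibroblast markers, 8 to 10 were detected per library, and their summed level was 13.8 and 12.1 CPM in WT, 17.8 and 16.6 in clone C1, 12.8 and 15.7 in clone 2C2, and 12.2 and 11.3 in clone C11. XistΔm6A/11C had 10.2 and 10.5 CPM in replicate 1 and 7.15 and 5.58 in replicate 2. Col1a2 was the most abundant in 10 libraries and Thy1 in the other 2, both of XistΔm6A/11C without Dox. Lum stood at 0 in 10 libraries and Postn at 0 in XistΔm6A/11C replicate 2 without Dox. The summed level was therefore lower in XistΔm6A/11C than in each other library. The single genes did not all follow the sum. Without Dox edgeR's quasi-likelihood test (Benjamini-Hochberg) called Col1a2 (log2 difference −1.70, adjusted p 0.0133) and Col1a1 (−1.42, 0.04) lower in XistΔm6A/11C, each with 2 of 2 replicates below all 3 clones, and Pdgfrb higher (1.27, 0.0402), with 2 of 2 above, out of 8 tested. All 3 calls depended on single clones or replicates, being made in 8, 5 and 6 of 10 alternatives. Without clone 2C2 the adjusted p values were 0.0707, 0.108 and 0.195 in edgeR's quasi-likelihood test (Benjamini-Hochberg), the highest for Col1a2 and Pdgfrb over those alternatives, where that of Col1a1 reached 0.119 without clone C1. With Dox 0 of the 8 were called higher and 3 lower, Col1a1 in 8 of 10 alternatives and Col1a2 and Prrx1 in 6 of 10 each. The part of these genes in the differences between the lines was not tested.

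Markers of primitive endoderm also differed between the lines. The 6 genes of that list summed to 12.2 to 16.3 CPM in the 8 libraries of WT and XistΔAprec and to 26.2 to 35.1 in the 4 of XistΔm6A/11C, with Gata4 the most abundant in XistΔm6A/11C and Pdgfra or Gata4 elsewhere. Foxa2 stood at 0 in clones C1 and 2C2 without Dox. In each state edgeR's quasi-likelihood test (Benjamini-Hochberg) called 3 of the 5 genes tested higher in XistΔm6A/11C, namely Gata4, Gata6 and Sox17, though Sox17 only in 6 of 10 alternatives without Dox and 2 of 10 with Dox. Sox7 and Pdgfra were not called in either state. Sox7 went the other way without Dox, with 2 of 2 replicates below all 3 clones and log2 differences of −0.81 to −0.23 over 10 alternatives. With Dox 1 of 2 lay below. Pdgfra had 1 of 2 replicates above all 3 clones without Dox and 2 of 2 with Dox. The share of all genes called, in either direction, was 19.8% without Dox and 16.6% with Dox. The 6 markers of early lineages summed to 10.2 to 19.6 CPM, with Sox1 at 0 in every library and Cdx2 at 0 in 5. With Dox in XistΔAprec and clone as a block, edgeR's quasi-likelihood test (Benjamini-Hochberg) called 1 of the 5 primitive endoderm genes tested, Sox7, lower by a log2 change of −1.13 (adjusted p 0.0134) in 3 of 3 clones, and 1 of 4 early lineage genes, T, higher by 0.53 (0.0379) in 3 of 3 clones. Sox7 was called in 2 of 5 alternatives and T in 1 of 5. DESeq2 with the block gave no adjusted p for either gene and is counted there as no call. In edgeR's quasi-likelihood test (Benjamini-Hochberg) the adjusted p of Sox7 was 0.101 without clone C1 and 0.0615 without 2C2, within 0.00598 to 0.101, and that of T was 0.139 without C1, 0.0978 without 2C2 and 0.136 without C11, within 0.0385 to 0.139. Between the lines without Dox 2 of the 4 early lineage genes were called by edgeR's quasi-likelihood test (Benjamini-Hochberg), T higher in XistΔm6A/11C by 1.23 (adjusted p 0.00897), with 2 of 2 replicates above all 3 clones, and Pax6 lower by a log2 difference of −1.56 (0.0222), with 2 of 2 below. With Dox Pax6 alone was called, again lower. T was called in 8 of 10 alternatives without Dox, other than without 2C2 and without C11 (0.0761 and 0.0545 in edgeR's quasi-likelihood test (Benjamini-Hochberg)), and Pax6 in 6 of 10 in each state, other than without 2C2, without C11 and without either replicate. These genes were named after their values were seen. The part of these markers in the results below was not tested, and in bulk RNA fewer cells of a kind and less RNA per cell cannot be told apart.

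**Figure D1:**
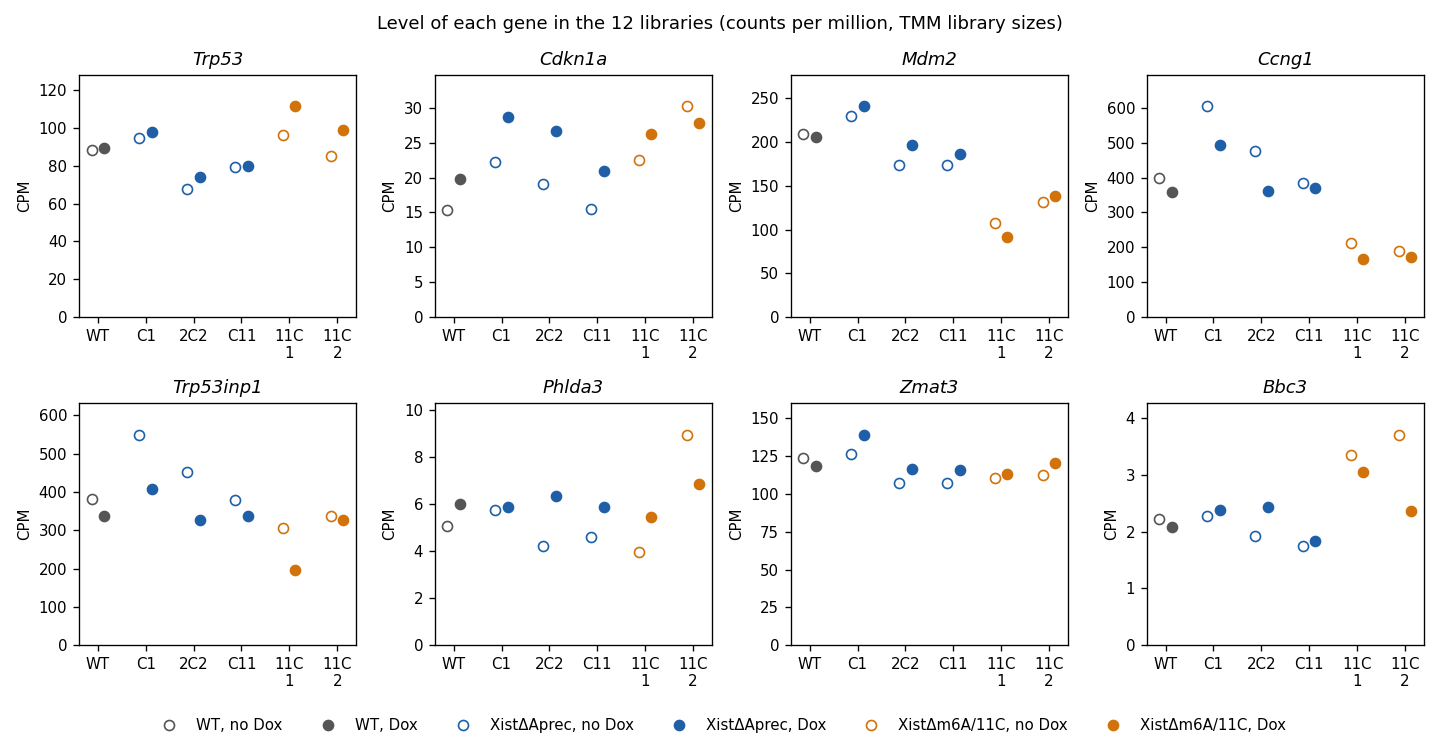
Level of each of the 8 genes (CPM, linear axis) in the 12 libraries. The libraries without and with Dox stand side by side for WT, each XistΔAprec clone and each XistΔm6A/11C replicate. Ccng1 and Mdm2 lie lower in all 4 XistΔm6A/11C libraries than in any other library, while Cdkn1a lies higher with Dox than without in WT and in each XistΔAprec clone.

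Trp53 (ENSMUSG00000059552.13, GRCm38 chr11:69580359-69591873, plus strand) encodes p53 itself. Its RNA measured 88.3 and 89.3 CPM in WT without and with Dox, 94.8 and 97.7 in clone C1, 67.8 and 74.0 in clone 2C2, and 79.4 and 80.0 in clone C11. In XistΔm6A/11C it measured 96.2 and 111 CPM in replicate 1 and 85.0 and 99.1 in replicate 2. Clone 2C2 was lowest and XistΔm6A/11C with Dox highest, and the lines overlapped without Dox but not with it. Dox against no Dox differed by a log2 change of 0.06 ± 0.149 (SE) across the 3 clones and was higher in 3 of 3, with an adjusted p of 0.889 in edgeR's quasi-likelihood test (Benjamini-Hochberg). XistΔm6A/11C exceeded XistΔAprec by a log2 difference of 0.17 ± 0.169 without Dox and 0.33 ± 0.168 with Dox, the latter with both replicates above all 3 clones, at adjusted p values of 0.489 and 0.196 in edgeR's quasi-likelihood test (Benjamini-Hochberg).

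The 129S share of Trp53 counts, from reads assigned to a parent, followed another division of the libraries. It was 51.3% (95% Wilson interval 48.4 to 54.3) and 48.8% (45.9 to 51.7) in WT without and with Dox, 46.2% (42.5 to 49.9) and 44.7% (41.5 to 48.0) in clone 2C2, and 45.4% (42.2 to 48.6) and 44.4% (41.3 to 47.4) in clone C11. Clone C1 had 64.6% (61.8 to 67.4) and 63.3% (60.5 to 65.9). XistΔm6A/11C had 63.6% (60.5 to 66.5) and 62.1% (59.9 to 64.2) in replicate 1 and 60.4% (56.9 to 63.9) and 62.2% (59.1 to 65.2) in replicate 2. The intervals of clone C1 and XistΔm6A/11C lay above those of WT and the other 2 clones. These intervals cover counting error only.

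Counts from the 2 alleles were also compared between libraries. Those from the 129S allele came to 29.1 and 28.9 CPM in clone C1 and 24.4 to 30.5 in XistΔm6A/11C, against 21.3 and 19.6 in WT, 15.0 and 15.1 in clone 2C2, and 16.5 and 16.6 in clone C11. Counts from the Castaneus allele came to 15.9 and 16.8 CPM in clone C1, 15.0 to 18.5 in XistΔm6A/11C, 20.2 and 20.6 in WT, 17.5 and 18.7 in clone 2C2, and 19.8 and 20.8 in clone C11. The 129S allele was thus above its level in WT and the other clones in each library of C1 and XistΔm6A/11C. The Castaneus allele was lower in both C1 libraries and in both XistΔm6A/11C libraries without Dox than in each library of WT, 2C2 and C11, so both alleles entered the raised share there. With Dox XistΔm6A/11C lay within the Castaneus range of 2C2 and below WT.

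In medians over its genes, chromosome 11 showed the same division. These medians do not show whether the chromosome was alike along its whole length. Over 956 of its genes the median 129S share was 68.9% and 69.1% in clone C1 and 68.1% to 68.6% in XistΔm6A/11C, against 54.6% and 55.1% in WT, 50.0% in both libraries of clone 2C2, and 52.3% and 52.2% in clone C11. The median log2 level of these genes, relative to each gene's median over the 12 libraries, was 0.20 in both libraries of clone C1, 0.08 to 0.31 in XistΔm6A/11C, −0.05 and −0.04 in WT, and −0.19 to −0.17 in clones 2C2 and C11. So the libraries with a raised share were also those with a raised level. A gain of a 129S copy would move both values this way, but DNA was not measured and the cause was not tested.

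Trp53 was then set beside its neighbours, 252 other genes within 10 Mb of its start, of which 230 had enough counts assigned to a parent. The neighbours' median 129S share was 68.4% and 68.6% in clone C1, 67.6% to 68.5% in XistΔm6A/11C, and 50.9% to 55.8% in the other libraries. Their median relative log2 level ran from −0.33 in clone 2C2 without Dox to 0.39 in XistΔm6A/11C replicate 1 with Dox. Trp53 less its neighbours stayed between −0.31 and 0.08, and over the 12 libraries the 2 levels had a Pearson r of 0.901, a description of points that share lines and clones. The level of Trp53 relative to the genes around it therefore differed little between libraries, other than in XistΔm6A/11C replicate 2 without Dox, which held the lowest value.

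**Figure D2:**
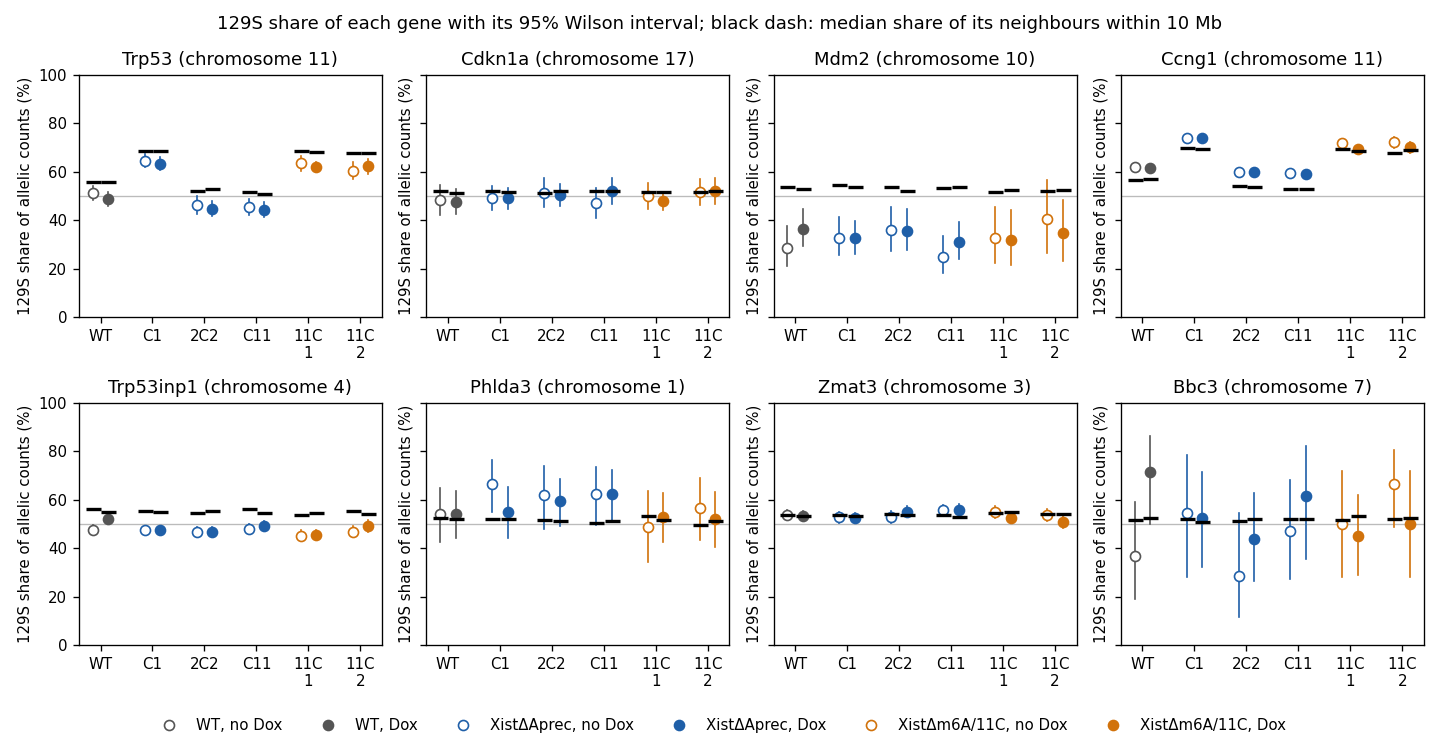
Share of counts from the 129S genome (percent, with 95% Wilson intervals) for the 8 genes in the 12 libraries. Trp53 and Ccng1, both on chromosome 11, have higher shares in clone C1 and in XistΔm6A/11C than in WT, 2C2 and C11.

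The genes most like Trp53 over the 12 libraries, out of 12283 averaging 50 or more counts, were Fam222b with a Pearson r of 0.958, 1500009L16Rik with 0.949, Nudcd3 with 0.944, Epn2 with 0.940 and Dph1 with 0.939. Of these 5, 4 also lie on chromosome 11 and 1500009L16Rik lies on chromosome 10. The 12 points share lines, clones and library sets.

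Promoter sequences are shown for the 4 members with p53-type letters in a window, chosen after the windows were searched, so that those letters can be seen. Each is the 250 bases before a start from a set of promoter windows made on RefSeq genes (GRCm38.p6), written 5′ to 3′ on the gene's strand, with capitals marking a match on either strand to the p53 half-site consensus, the 10-base element that p53 binds in pairs. That set holds 9 windows for 6 of the 8 genes. It holds none for Trp53inp1 and Zmat3, which are annotated genes, so their promoters were not read. A half-site match occurred in 7.13% of all 32851 promoter windows of this length, 2 of them 0 to 13 bases apart in 0.0639%, and the letters CATGNNNNNNCATG, which can overlap a half-site, in 0.49%. Among the members 4 had at least 1 half-site match (Trp53, Cdkn1a, Mdm2 and Ccng1), and the windows of Phlda3 and Bbc3 had none, which says only that these letters are not in these windows. A match is a description and no binding was measured. The windows are those of Trp53 (chr11:69580109-69580358, plus strand), Mdm2 (chr10:117710759-117711008, minus strand), Ccng1 (chr11:40755287-40755536, minus strand) and the upstream start of Cdkn1a (chr17:29090729-29090978, plus strand).
Trp53: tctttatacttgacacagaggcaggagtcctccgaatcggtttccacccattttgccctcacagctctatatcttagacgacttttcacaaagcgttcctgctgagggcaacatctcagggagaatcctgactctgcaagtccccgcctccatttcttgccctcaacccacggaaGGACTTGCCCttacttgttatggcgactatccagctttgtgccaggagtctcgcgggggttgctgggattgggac
Mdm2: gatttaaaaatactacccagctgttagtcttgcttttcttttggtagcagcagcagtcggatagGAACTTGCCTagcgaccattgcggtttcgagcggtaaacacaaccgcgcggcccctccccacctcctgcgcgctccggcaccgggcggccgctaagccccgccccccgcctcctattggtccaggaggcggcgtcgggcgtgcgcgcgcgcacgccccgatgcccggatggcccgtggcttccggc
Ccng1: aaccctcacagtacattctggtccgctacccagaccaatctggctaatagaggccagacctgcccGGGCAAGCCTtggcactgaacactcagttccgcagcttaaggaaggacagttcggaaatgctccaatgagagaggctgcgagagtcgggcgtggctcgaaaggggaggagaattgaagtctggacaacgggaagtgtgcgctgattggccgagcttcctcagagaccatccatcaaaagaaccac
Cdkn1a: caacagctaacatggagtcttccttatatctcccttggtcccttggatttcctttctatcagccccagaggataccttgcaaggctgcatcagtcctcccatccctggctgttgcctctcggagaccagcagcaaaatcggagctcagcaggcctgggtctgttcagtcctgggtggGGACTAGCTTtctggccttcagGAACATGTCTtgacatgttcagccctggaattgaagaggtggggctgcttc

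The match in the Trp53 window lies 75 bases before the start, that of Mdm2 186 bases before and that of Ccng1 185 bases before. The Cdkn1a window holds 2, at 73 and 51 bases before the start, along with 1 occurrence of CATGNNNNNNCATG. It is the only window of the 9 with a pair of half-sites or with those letters.

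Mdm2 (ENSMUSG00000020184.15, chr10:117688875-117710758, minus strand) encodes the ubiquitin ligase that degrades p53 and is itself a p53 target. It measured 209.5 and 206 CPM in WT without and with Dox, 229.9 and 241 in clone C1, 174 and 196 in clone 2C2, and 174 and 186 in clone C11. XistΔm6A/11C measured 108 and 91.6 CPM in replicate 1 and 132 and 138 in replicate 2. All 4 XistΔm6A/11C libraries lay below all 8 others, and the lines did not overlap in either state. Mdm2 was lower in XistΔm6A/11C by a log2 difference of −0.68 ± 0.212 without Dox, with both replicates below all 3 clones and an adjusted p of 0.0456 in edgeR's quasi-likelihood test (Benjamini-Hochberg). With Dox the difference was −0.85 ± 0.214, again with both replicates below all 3 clones, at an adjusted p of 0.0231 in edgeR's quasi-likelihood test (Benjamini-Hochberg).

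Both calls on Mdm2 depended on the libraries and settings used, though the direction did not. Without Dox the adjusted p in edgeR's quasi-likelihood test (Benjamini-Hochberg) became 0.122 without clone C1, 0.132 without 2C2, 0.0942 without C11 and 0.0932 without XistΔm6A/11C replicate 1, and it was 0.0329 without replicate 2. With Dox the corresponding adjusted p values in edgeR's quasi-likelihood test (Benjamini-Hochberg) were 0.0571, 0.0942, 0.0679, 0.0745 and 0.00887. The log2 difference stayed between −0.83 and −0.54 without Dox and between −1.19 and −0.60 with Dox over all 10 alternatives run for each state, and the adjusted p of edgeR's quasi-likelihood test or DESeq2 (both Benjamini-Hochberg) ranged from 0.0166 to 0.132 and from 0.003 to 0.0942. The call was also lost without Dox with TMM taken off chromosomes X, 1, 6, 8, 11 and 12 (0.0578) and with Dox in a fit on the 5 libraries of that state (0.0636). The direction was therefore the same in each alternative and the call was not, being made in 5 of 10 alternatives in each state.

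Genes around Mdm2 differed far less. The 81 neighbours within 10 Mb had median relative log2 levels of −0.17 to −0.08 in XistΔm6A/11C and −0.02 to 0.07 in the other 8 libraries, against −0.97 to −0.38 and −0.05 to 0.42 for Mdm2 itself. They were thus lower in XistΔm6A/11C as well, by less, with a Pearson r of 0.699 between Mdm2 and its neighbours over 12 libraries that share lines and clones. Their median 129S share was 51.7% to 54.7%. Mdm2 less its neighbours was −0.89 and −0.60 in XistΔm6A/11C replicate 1 with and without Dox, −0.28 and −0.26 in replicate 2 without and with Dox, and −0.11 to 0.45 in the other libraries. Only 2.35% of Mdm2 counts could be assigned to a parent, so its share, 25% to 40.5% over the libraries, rests on a mean of 105 counts. At this depth the intervals of all libraries overlapped and no difference in share was detectable.

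Ccng1 (ENSMUSG00000020326.7, chr11:40748552-40755286, minus strand) encodes cyclin G1, a partner of protein phosphatase 2A that acts back on Mdm2 and p53. It measured 399 and 358 CPM in WT without and with Dox, 604 and 493 in clone C1, 476 and 363 in clone 2C2, and 383 and 371 in clone C11. XistΔm6A/11C measured 212 and 166 CPM in replicate 1 and 189 and 172 in replicate 2. The highest XistΔm6A/11C library lay well under the lowest of the other 8, and every pair was lower with Dox than without. The log2 difference of XistΔm6A/11C from XistΔAprec was −1.28 ± 0.210 without Dox, with both replicates below all 3 clones and an adjusted p of 0.00348 in edgeR's quasi-likelihood test (Benjamini-Hochberg). With Dox it was −1.27 ± 0.210, again with both replicates below all 3 clones, at an adjusted p of 0.00411 in edgeR's quasi-likelihood test (Benjamini-Hochberg). Ccng1 was called in all 10 alternatives run in each state, with the highest adjusted p of edgeR's quasi-likelihood test or DESeq2 (both Benjamini-Hochberg) at 0.0356 without Dox and 0.0326 with Dox.

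The position of Ccng1 makes its low level in XistΔm6A/11C stand apart from that of its neighbours. It lies on chromosome 11, and its 72 neighbours within 10 Mb had median relative log2 levels of 0.13 to 0.25 in XistΔm6A/11C and 0.23 and 0.27 in clone C1, against −0.31 to −0.05 in WT, 2C2 and C11. Ccng1 less its neighbours was −1.34 to −0.97 in XistΔm6A/11C and 0.02 to 0.69 in the other 8 libraries. Over all 12 the Pearson r between Ccng1 and its neighbours was −0.36. In clone C1, where the neighbours were raised as well, Ccng1 reached its highest level.

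Shares at Ccng1 followed the chromosome. The 129S share was 62.0% (95% Wilson interval 60.7 to 63.3) and 61.6% (60.3 to 63.0) in WT, 59.8% (58.4 to 61.1) in each library of clone 2C2, and 59.5% (58.1 to 60.9) and 58.9% (57.6 to 60.3) in clone C11. Clone C1 had 74.0% (73.0 to 74.9) and 74.1% (73.1 to 75.1). XistΔm6A/11C had 71.9% (70.1 to 73.7) and 69.5% (67.9 to 71.1) in replicate 1 and 72.1% (69.9 to 74.3) and 70.1% (67.9 to 72.2) in replicate 2. Clone C1 and XistΔm6A/11C again lay above the rest.

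By allele, the lower Ccng1 level in XistΔm6A/11C was seen from both parental genomes. The Castaneus allele gave 23.3 to 28.0 CPM in XistΔm6A/11C and 67.7 to 94.7 in WT and XistΔAprec. The 129S allele gave 53.4 to 71.8 CPM in XistΔm6A/11C, 194 and 237 in clone C1, and 112 to 141 in WT, 2C2 and C11. The ranges of XistΔm6A/11C and the other lines did not overlap for either allele.

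**Figure D3:**
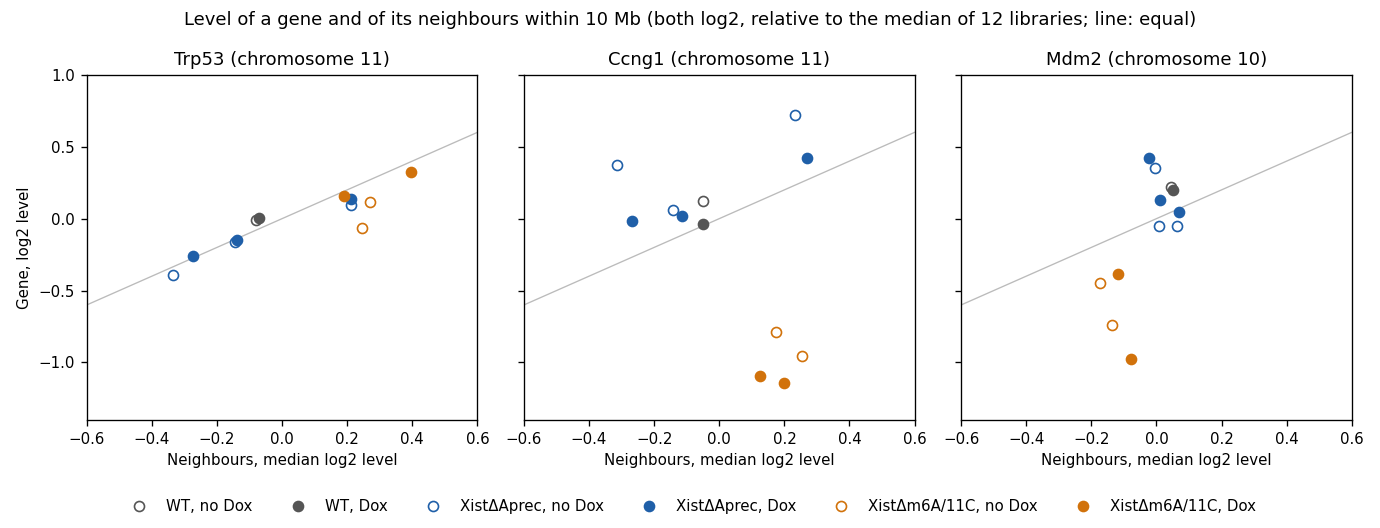
Relative log2 level of Trp53, Ccng1 and Mdm2, each against the median of its neighbours within 10 Mb, 1 point per library. Trp53 lies along its neighbours (r of 0.901), while Ccng1 in XistΔm6A/11C lies 0.97 to 1.34 below them on the log2 scale.

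Trp53inp1 (ENSMUSG00000028211.11, chr4:11156441-11174377, plus strand) encodes a stress-induced nuclear protein that promotes p53 activity. It measured 382 and 339 CPM in WT without and with Dox, 549.9 and 408 in clone C1, 451 and 328 in clone 2C2, and 379 and 337 in clone C11. XistΔm6A/11C measured 307 and 197 CPM in replicate 1 and 338 and 328 in replicate 2. Every pair was lower with Dox, by a log2 change of −0.17 in WT, −0.43, −0.46 and −0.17 in clones C1, 2C2 and C11, and −0.64 and −0.04 in XistΔm6A/11C replicates 1 and 2. The 95% counting interval of replicate 2, −0.0914 to 0.0081, included 0. The lines did not overlap without Dox and overlapped with it, and XistΔm6A/11C replicate 1 with Dox was the lowest library.

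Trp53inp1 was not called between the lines, with a log2 difference of −0.51 ± 0.229 without Dox, both replicates below all 3 clones, and an adjusted p of 0.139 in edgeR's quasi-likelihood test (Benjamini-Hochberg). With Dox the difference was −0.44 ± 0.229, with 1 of 2 replicates below all 3 clones and an adjusted p of 0.201 in edgeR's quasi-likelihood test (Benjamini-Hochberg). Leaving out XistΔm6A/11C replicate 2 gave −0.87 with Dox and an adjusted p of 0.0266 in that test, the one alternative of 10 in which it was called, within a range of 0.0266 to 0.678. The 51 neighbours of Trp53inp1 reached a median relative log2 level of −0.50 in replicate 1 with Dox, the same library, and lay between −0.28 and 0.13 in the others. The r between the gene and its neighbours was 0.839 over 12 libraries that share lines and clones.

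Cdkn1a (ENSMUSG00000023067.14, chr17:29090986-29100722, plus strand) encodes p21, the kinase inhibitor through which p53 halts the cell cycle. It measured 15.4 and 19.8 CPM in WT without and with Dox, 22.3 and 28.7 in clone C1, 19.1 and 26.7 in clone 2C2, and 15.5 and 21.0 in clone C11. XistΔm6A/11C measured 22.6 and 26.3 CPM in replicate 1 and 30.2 and 27.8 in replicate 2. With Dox the level was higher in WT, in all 3 clones and in XistΔm6A/11C replicate 1, and lower in replicate 2. The log2 changes were 0.37 in WT (95% counting interval 0.18 to 0.55), 0.36, 0.48 and 0.44 in clones C1, 2C2 and C11, and 0.22 and −0.12 in XistΔm6A/11C replicates 1 and 2. Without Dox the lines did not overlap, with XistΔm6A/11C the higher, and with Dox they did.

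Cdkn1a was not called between the lines, at a log2 difference of 0.48 ± 0.204 without Dox, both replicates above all 3 clones and an adjusted p of 0.118 in edgeR's quasi-likelihood test (Benjamini-Hochberg). With Dox the difference was 0.09 ± 0.203, neither replicate lay above all 3 clones, and the adjusted p was 0.794 in edgeR's quasi-likelihood test (Benjamini-Hochberg). Its 129S share was 47.0% to 52.0% in every library, beside 51.1% to 52.2% for its 261 neighbours, so no departure from balance like that of chromosome 11 was seen. Levels of its neighbours ran from −0.28 to 0.16 in relative log2 terms and did not follow those of Cdkn1a (r of −0.37 over 12 libraries). The genes most like it over the 12 libraries were Slc27a3 with an r of 0.957, Ppp1r13b with 0.952, Phactr2 with 0.930, Zbtb46 with 0.929 and Chsy3 with 0.925, on chromosomes 3, 12, 10, 2 and 18.

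Bbc3 (ENSMUSG00000002083.13, chr7:16309583-16318334, plus strand) encodes PUMA, a BH3-only protein through which p53 starts apoptosis. It was the scarcest member, with 42 to 125 counts per library. It measured 2.22 and 2.07 CPM in WT without and with Dox, 2.27 and 2.39 in clone C1, 1.92 and 2.43 in clone 2C2, and 1.74 and 1.83 in clone C11, against 3.36 and 3.05 in XistΔm6A/11C replicate 1 and 3.71 and 2.36 in replicate 2. The lines did not overlap without Dox and overlapped with it. Bbc3 was higher in XistΔm6A/11C without Dox by a log2 difference of 0.84 ± 0.256, in both replicates against all 3 clones, with an adjusted p of 0.043 in edgeR's quasi-likelihood test (Benjamini-Hochberg). It was called in 3 of 10 alternatives. With no count filter the adjusted p in that test was 0.0626 and in a fit on the 5 libraries of the state 0.0577. Leaving out any of the 3 clones or 2 replicates also removed the call, at adjusted p values in that test of 0.0778 without C1, 0.187 without 2C2, 0.134 without C11, 0.0539 without replicate 1 and 0.0874 without replicate 2, while the difference stayed between 0.76 and 0.94 over the 10 alternatives. With Dox the log2 difference was 0.30 ± 0.255, with 1 of 2 replicates above all 3 clones and an adjusted p of 0.441 in edgeR's quasi-likelihood test (Benjamini-Hochberg).

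Phlda3 (ENSMUSG00000041801.5, chr1:135766085-135769134, plus strand) encodes a pleckstrin-homology protein that holds back Akt. It measured 5.05 and 6.01 CPM in WT without and with Dox, 5.73 and 5.88 in clone C1, 4.21 and 6.33 in clone 2C2, 4.59 and 5.87 in clone C11, 3.95 and 5.44 in XistΔm6A/11C replicate 1, and 8.95 and 6.84 in replicate 2. The value with Dox was the higher in each pair other than XistΔm6A/11C replicate 2, whose library without Dox was the highest of the 12, and the lines overlapped in both states. The log2 difference between the lines without Dox was 0.41 ± 0.310, with 1 of 2 replicates above all 3 clones and an adjusted p of 0.369 in edgeR's quasi-likelihood test (Benjamini-Hochberg). Leaving out replicate 1 gave 0.88 and an adjusted p of 0.0249 in that test, leaving out replicate 2 gave −0.29 and 0.400, and the range over 10 alternatives was 0.0249 to 0.646.

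Zmat3 (ENSMUSG00000027663.12, chr3:32334794-32365665, minus strand) encodes a zinc-finger protein that binds RNA and alters splicing. It varied least, from 107 CPM in clones 2C2 and C11 without Dox to 139 in clone C1 with Dox, with a median of 116. WT measured 124 and 118 CPM and XistΔm6A/11C 110.5 to 120.3, so the lines overlapped in both states. The log2 difference between the lines was −0.02 ± 0.135 without Dox and −0.08 ± 0.135 with Dox, with 0 of 2 replicates outside the range of the 3 clones without Dox and 1 of 2 below it with Dox, at adjusted p values of 0.920 and 0.712 in edgeR's quasi-likelihood test (Benjamini-Hochberg). Its 129S share was 51.1% to 56.0%, beside 52.8% to 54.9% for its 66 neighbours.

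Among the members not on chromosome 11, none had a share that set clone C1 and XistΔm6A/11C apart. Trp53inp1 ranged from 45.3% to 52.0%, Phlda3 from 48.8% to 66.7% and Bbc3 from 28.6% to 71.4%, the last on a mean of 19.7 assigned counts. Between Dox and no Dox in the 3 clones, the mean share of each of the 8 members differed by −4.65 to 9.14 percentage points. The exact two-sided permutation test over 3 against 3 libraries gave p from 0.3 to 0.9, but it does not pair the clones and the smallest p it can give is 0.1, so it could not have called a change. Within clones the share of Trp53 was lower with Dox in 3 of 3, by a mean of −1.28 percentage points, and the Wilson intervals with and without Dox overlapped in each clone. The SD between clones, 10.8 with Dox, holds the raised share of C1 and does not measure the spread of that paired change. The paired change was not tested. For the other 7 members the clones did not all go one way.

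Levels of the 8 genes can be put in order only per kb of gene span. In mean CPM per kb over the 12 libraries, Ccng1 came first at 51.8 (range 24.7 to 89.7), followed by Trp53inp1 at 20.2 (10.99 to 30.7). In the same CPM per kb, Mdm2 followed at 7.94 (4.19 to 11), Trp53 at 7.69 (5.88 to 9.67), Zmat3 at 3.81 (3.47 to 4.51), Cdkn1a at 2.36 (1.58 to 3.10), Phlda3 at 1.88 (1.30 to 2.93) and Bbc3 at 0.280 (0.199 to 0.424). Adjacent ranges of CPM per kb overlapped for Ccng1 and Trp53inp1, for Mdm2 and Trp53, for Cdkn1a and Phlda3, and, barely, for Trp53inp1 and Mdm2. The order of Mdm2 and Trp53 also turned with the line, with Trp53 above Mdm2 in CPM per kb in all 4 XistΔm6A/11C libraries (7.38 to 9.67 against 4.19 to 6.30) and Mdm2 above Trp53 in each of the other 8. In WT without Dox Phlda3 lay above Cdkn1a, at 1.66 against 1.58 CPM per kb. The ranges of Trp53 and Zmat3, Zmat3 and Cdkn1a, and Phlda3 and Bbc3 did not overlap.

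The first comparison asked what 24 h of Dox did to these genes in XistΔAprec, where Xist is induced without its A-repeat. Over 14866 genes tested, edgeR's quasi-likelihood test (Benjamini-Hochberg) called 3 genes, 0.0202%, and none of the 8 members or of 52 further genes of the p53 pathway. At an unadjusted p under 0.05 there were 2162 genes, and DESeq2 called 421, none of them a member and 1 of them from the pathway list. The 3 clones stand apart from each other, and that spread enters this test. The p-values here measure spread between these samples, which may be technical.

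With each clone compared with itself, by entering clone as a block, 4384 of 15130 genes were called by edgeR's quasi-likelihood test (Benjamini-Hochberg), 29.0% of those tested, and 3 of the 8 members. The members' share called, 37.5%, was thus not far from that of all genes, of which 14.5% were called higher and 14.5% lower. Their median log2 change was 0.12, beside 0.01 over all genes tested. The clones pair because the 2 libraries of each come from the same cells, and over genes their 2 libraries correlated after the state means were removed (r of 0.595 for C1, 0.368 for 2C2 and 0.537 for C11). Between different clones r was −0.466 to −0.078. With a state mean over only 3 clones removed, positive values within clones force negative ones between them on average. The values between clones are therefore no separate evidence of pairing.

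Cdkn1a was one of the 3 members called with clone as a block, higher with Dox by a log2 change of 0.43 ± 0.0764 in 3 of 3 clones, with an adjusted p of 9.41e-05 in edgeR's quasi-likelihood test (Benjamini-Hochberg). With no block the same change had an SE of 0.172 and an adjusted p of 0.324 in that test. Trp53inp1 was lower with Dox by a log2 change of −0.35 ± 0.0503 in 3 of 3 clones, with an adjusted p of 6.61e-06 in edgeR's quasi-likelihood test (Benjamini-Hochberg) with the block, and −0.36 ± 0.148 and 0.334 with no block. Ccng1 was lower by a log2 change of −0.24 ± 0.0515 in 3 of 3 clones, with an adjusted p of 0.000803 in edgeR's quasi-likelihood test (Benjamini-Hochberg) with the block, and −0.25 ± 0.184 and 0.581 with no block. So one member rose and 2 fell, and each of the 3 was called only with clones paired.

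The other 5 members were not called with the block. Mdm2 (0.12), Phlda3 (0.32) and Zmat3 (0.13) were higher with Dox on the log2 scale in 3 of 3 clones, at adjusted p values of 0.0641, 0.0642 and 0.0568 in edgeR's quasi-likelihood test (Benjamini-Hochberg). Trp53 and Bbc3 had log2 changes of 0.06 and 0.17, above 0 in 3 of 3 clones, at adjusted p values of 0.406 and 0.531 in edgeR's quasi-likelihood test (Benjamini-Hochberg). Under DESeq2 with the block, an alternative chosen after seeing the data, Ccng1 was not called, with a Benjamini-Hochberg adjusted p of 0.13, the highest of its 5 alternatives, whose lowest was 7.05e-08. Without clone C1 Phlda3 was called by edgeR's quasi-likelihood test with the block, at an adjusted p of 0.0434 after Benjamini-Hochberg, 1 of 5 alternatives that ranged up to 0.456.

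**Figure D4:**
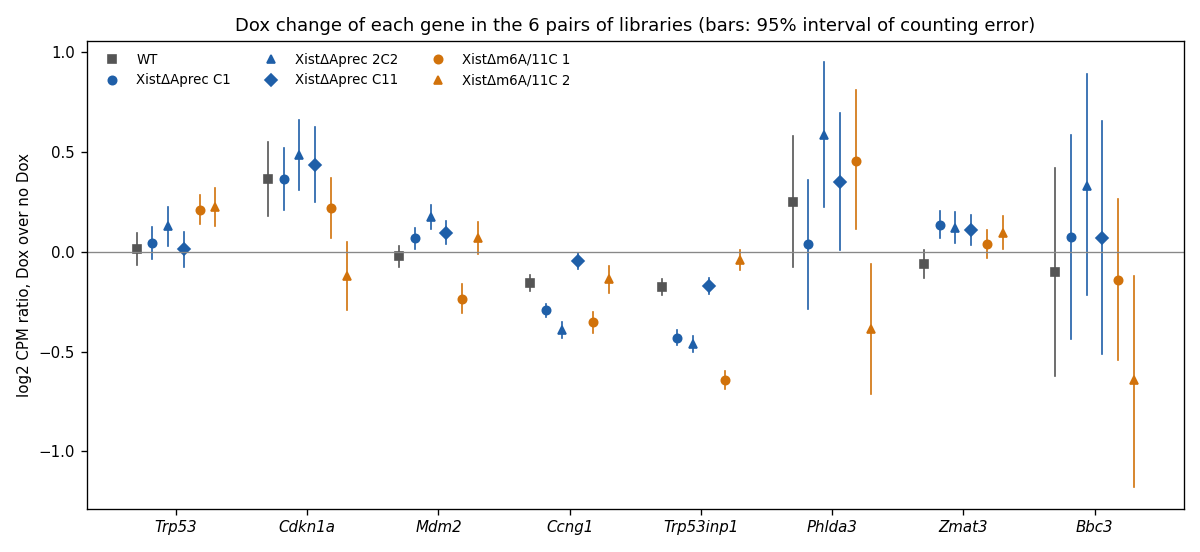
Log2 change with Dox of each of the 8 genes in WT, the 3 XistΔAprec clones and the 2 XistΔm6A/11C replicate pairs, 1 point per pair. Ccng1 and Trp53inp1 have a lower value with Dox in all 6 pairs and Cdkn1a a higher one in 5 of 6. Single pairs were not tested. The exception for Cdkn1a is XistΔm6A/11C replicate 2, where the 95% counting interval of Trp53inp1 included 0.

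WT went the way of the clones for the 3 called members, on 1 library per state and with no test. Its log2 changes with Dox were 0.37 for Cdkn1a, −0.16 for Ccng1 and −0.17 for Trp53inp1, and lay between −0.10 and 0.25 for the other 5. Over all 8 members the median change was −0.04 in WT, 0.05, 0.15 and 0.08 in clones C1, 2C2 and C11, and −0.05 and −0.08 in XistΔm6A/11C replicates 1 and 2. The medians over 14993 genes averaging 10 or more counts lay between −0.01 and 0.02 in those 6 pairs. By sign alone, with no test, 6 of 8 members lay above 0 in each clone and 3 of 8 in WT, where the 95% counting interval included 0 for Trp53, Mdm2, Phlda3, Zmat3 and Bbc3. Of the 14993 genes 7443, 7806 and 7693 lay above 0 in clones C1, 2C2 and C11 and 7517 in WT. Whether WT differs from the clones was not tested.

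The second comparison put the same question to XistΔm6A/11C. Of 15140 genes edgeR's quasi-likelihood test (Benjamini-Hochberg) called 0, 0.0%, and so none of the 8 members or of the 52 pathway genes, with 173 genes at an unadjusted p under 0.05 and 3 called by DESeq2. Xist itself, at a log2 change of 5.40 in 2 of 2 pairs, had an adjusted p of 0.0546 in edgeR's quasi-likelihood test (Benjamini-Hochberg). The members' log2 changes ran from −0.39 for Bbc3 to 0.20 for Trp53, with a median of −0.08 beside −0.00 over all genes tested. The 2 replicate pairs went opposite ways for Cdkn1a, Mdm2 and Phlda3. With replicate number as a block the test called 237 genes, 1.57%, and again no member, but the XistΔm6A/11C replicates are known to share only a number.

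The difference in Dox change between the deletions was tested directly over 15745 genes. edgeR's quasi-likelihood test (Benjamini-Hochberg) called 0, 0.0%, with 233 genes at an unadjusted p under 0.05 and 2 called by DESeq2, and no member under either, and with clone or replicate number as a block it called 117 genes, 0.743%, and no member. The difference, XistΔm6A/11C minus XistΔAprec, was −0.39 ± 0.289 in log2 for Cdkn1a, whose change in both replicate pairs lay under that of all 3 clones, at an adjusted p of 1 in edgeR's quasi-likelihood test (Benjamini-Hochberg). The response of Cdkn1a in the clones is therefore not shown to differ from that in XistΔm6A/11C. The members' median difference was −0.11, beside −0.11 over the 52 pathway genes and −0.01 over all genes.

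The lines were compared within each state. Without Dox edgeR's quasi-likelihood test (Benjamini-Hochberg) called 3125 of 15745 genes, 19.8% of them (9.99% higher and 9.86% lower in XistΔm6A/11C), and 3 of the 8 members, Ccng1 and Mdm2 lower and Bbc3 higher. With Dox it called 2613 genes, 16.6% (7.92% higher and 8.68% lower), and 2 of the 8 members, Ccng1 and Mdm2. These counts depended on single libraries. Without Dox 539 genes and 1 member were called without clone 2C2, 1334 and 1 without C11, and 2232 and 1 without C1, and with Dox 523 and 1 without 2C2, 823 and 1 without C11, 1752 and 1 without C1, 3909 and 1 without XistΔm6A/11C replicate 1, and 4452 and 3 without replicate 2. Ccng1 was among the members called in each of those alternatives.

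The members' median log2 difference between the lines was 0.07 without Dox and −0.03 with Dox, beside 0.04 and 0.03 over all genes tested. The list as a whole thus had a median near that of all genes in both states, with Ccng1 and Mdm2 lowest in both, Bbc3 highest without Dox and Trp53 highest with Dox (0.33, beside 0.30 for Bbc3, neither called). Both comparisons set the same 2 replicates against the same 3 clones. The share of all genes with both replicates beyond all 3 clones was not counted. Such separation of a named gene is therefore a description only, and how common it is was not shown.

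**Figure D5:**
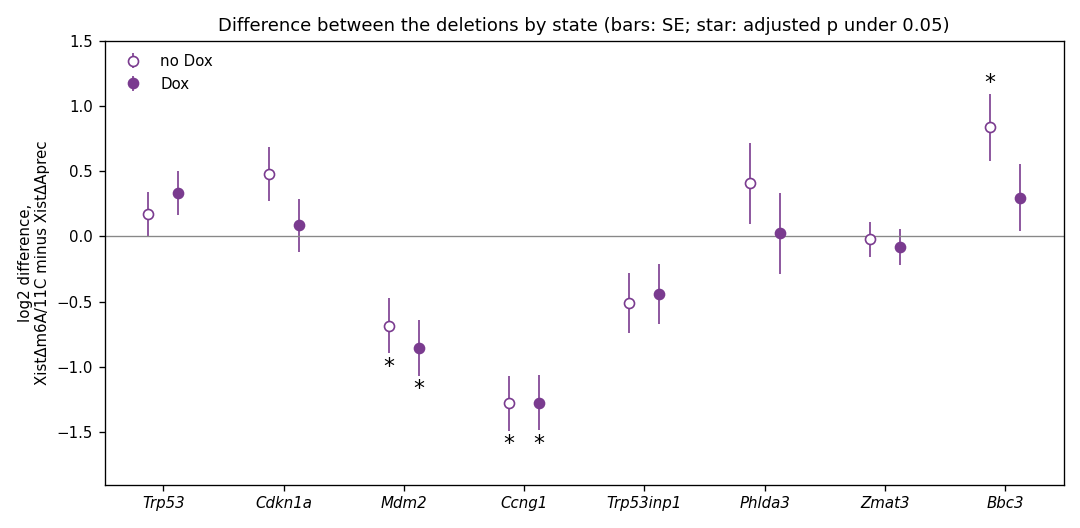
Log2 difference of XistΔm6A/11C from XistΔAprec (with standard errors) for the 8 genes without and with Dox. Ccng1 lies at −1.28 and −1.27 and Mdm2 at −0.68 and −0.85, while Bbc3 lies at 0.84 without Dox and 0.30 with Dox.

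The clones of XistΔAprec also differed from each other. With state as a covariate, edgeR's quasi-likelihood test (Benjamini-Hochberg) called 6076 of 15130 genes, 40.2%, and 6 of the 8 members. Among the markers it called 6 of 9 ES-cell, 2 of 8 fibroblast, 3 of 5 primitive endoderm and 3 of 4 early lineage genes. Some of these marker calls were lost on leaving out a clone, and their part in the members' differences was not tested. The range between the highest and lowest clone was 0.54 in log2 for Ccng1 (adjusted p 1.93e-07), 0.39 for Mdm2 (3.52e-06), 0.41 for Trp53inp1 (1.07e-05), 0.44 for Trp53 (1.84e-05), 0.49 for Cdkn1a (0.000372) and 0.26 for Zmat3 (0.00111), all by edgeR's quasi-likelihood test (Benjamini-Hochberg) on 2 libraries per clone. Clone C1 was highest for all 6, in 2 of 2 states. Phlda3 and Bbc3 were not called, at ranges of 0.16 and 0.39 and adjusted p values of 0.644 and 0.302 in edgeR's quasi-likelihood test (Benjamini-Hochberg). The median range was 0.40 over the members and 0.30 over all genes tested.

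Clone C1 carried most of these calls. Without it edgeR's quasi-likelihood test (Benjamini-Hochberg) called 2291 genes and 1 member, Cdkn1a, at a range of 0.34 and an adjusted p of 0.0261, within 4.63e-05 to 0.136 over the 7 alternatives. Without clone C11 it called 4548 genes and 5 members, with Cdkn1a no longer among them at an adjusted p of 0.136 in that test, and without clone 2C2 5296 genes and 6 members. Of the 6 members called, Trp53 and Ccng1 lie on chromosome 11, where clone C1 had the raised share and level described above. The other 4 lie on chromosomes 17, 10, 4 and 3, where the median 129S share of the clones was 51.6% to 53.6%. Whether the state of chromosome 11 bears on the levels of those 4 genes was not tested. Chromosome 6 also stood apart in clone C11, with a median 129S share of 49.9% without Dox and 50.0% with Dox. That median was 52.6% to 52.9% in clones C1 and 2C2. No member lies on chromosome 6.

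Pairs of members can be set side by side over the 12 libraries, as a description of points that share lines, clones and library sets. The highest Pearson r was 0.889 between Mdm2 and Ccng1, followed by 0.804 between Ccng1 and Trp53inp1 and 0.771 between Mdm2 and Trp53inp1. Trp53 had an r of −0.391 with Mdm2, −0.460 with Ccng1 and 0.375 with Cdkn1a. The lowest r was −0.671, between Ccng1 and Bbc3. Since XistΔm6A/11C is low for Mdm2 and Ccng1 and high for Bbc3, these values also carry the difference between the lines.

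The wider p53 pathway was read from a list of 53 other genes, of which 52 were found and Tigar was not matched by symbol. With clone as a block 24 of the 52 were called for Dox in XistΔAprec, 46.2% against 29.0% of all genes, 17 of them higher and 7 lower with Dox. Their median log2 change was 0.08, beside 0.01 over all genes. By group, 5 of 17 regulators and relatives of p53, 3 of 8 arrest targets, 3 of 10 apoptosis targets, 3 of 10 repair and metabolism targets and 3 of 7 other targets were called higher, and 2, 2, 0, 2 and 1 were called lower. With no block edgeR called 0 of them and DESeq2 1, as given above.

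Of those higher with Dox in the blocked fit, the 6 with the smallest adjusted p were Mdm4 (log2 change 0.37, adjusted p 5.38e-07), Pvt1 (0.35, 3.26e-06), Polk (0.35, 9.5e-06), Apaf1 (0.35, 2.08e-05), Sesn2 (0.30, 0.000933) and Ephx1 (0.41, 0.00127), each higher in 3 of 3 clones, in edgeR's quasi-likelihood test (Benjamini-Hochberg). Mdm4, which encodes the partner of Mdm2 that masks p53, had 553 to 587 CPM in the clones without Dox and 721 to 759.9 with it, ranges that did not overlap. It measured 620.5 and 768 CPM in WT and 478 and 609 without Dox and 539.4 and 539.6 with Dox in XistΔm6A/11C.

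Of those lower with Dox, the 6 with the smallest adjusted p were Pcna (−0.41, 1.87e-06), Sirt1 (−0.36, 1.87e-06), Chek1 (−0.24, 0.00172), Plk3 (−0.39, 0.00718), Epha2 (−0.23, 0.00811) and Gpx1 (−0.37, 0.00845), log2 changes and adjusted p in edgeR's quasi-likelihood test (Benjamini-Hochberg) with the block, each lower in 3 of 3 clones. Sirt1, a deacetylase of p53, measured 212 to 274 CPM in the clones without Dox and 162 to 203 with it. It measured 230.1 and 211 CPM in WT and 96.6 to 150.0 in XistΔm6A/11C. The count of pathway genes called fell to 12 without clone C1 and 15 without 2C2, and was 13 under DESeq2, all with the block. These were 23.1%, 28.8% and 25% of the list, beside 14.5%, 18.6% and 17.5% of all genes in the same fits.

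Between the lines 12 of the 52 pathway genes were called without Dox, 23.1% against 19.8% of all genes, 5 higher and 7 lower in XistΔm6A/11C. The higher ones were Ephx1 (log2 difference 1.67, adjusted p 0.00376), Ddit4 (1.84, 0.0045), Pvt1 (0.78, 0.00635), Trp53cor1 (1.40, 0.0298) and Trp63 (1.22, 0.0333), each with 2 of 2 replicates above all 3 clones, in edgeR's quasi-likelihood test (Benjamini-Hochberg). The 6 lower ones with the smallest adjusted p were Ep300 (−0.71, 0.00782), Rps27l (−0.79, 0.0109), Plk3 (−0.82, 0.0132), Rchy1 (−0.71, 0.0148), Eda2r (−1.04, 0.0174) and Sirt1 (−0.86, 0.0185), each with 2 of 2 replicates below all 3 clones, in edgeR's quasi-likelihood test (Benjamini-Hochberg). The median over the list was 0.14 without Dox. Of the 52 pathway genes, 2 were called without clone 2C2 and 6 without C11, counts that do not say which genes. The share of all genes called was lower in the same fits as well, at 3.44% and 8.55% beside 19.8% with all 3 clones.

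With Dox 7 of the 52 were called between the lines, 13.5% against 16.6% of all genes. Higher in XistΔm6A/11C were Ddit4 (log2 difference 1.83, adjusted p 0.00533), Pvt1 (0.73, 0.00973) and Ephx1 (1.20, 0.0167), and lower were Rps27l (−0.89, 0.00748), Eda2r (−1.22, 0.0106), Ep300 (−0.59, 0.0187) and Rchy1 (−0.54, 0.0477), with 2 of 2 replicates beyond all 3 clones for each of the 7, in edgeR's quasi-likelihood test (Benjamini-Hochberg). Ephx1 had 33.1 and 33.4 CPM in XistΔm6A/11C with Dox and 10.5 to 19.8 in the clones. Eda2r, a receptor gene that p53 induces, is the only X-linked gene of the list, and X-linked genes had a median relative log2 level of −0.68 and −0.40 in XistΔm6A/11C with Dox and −0.02 to 0.08 in the clones with Dox. Eda2r was already lower by −1.04 without Dox, where those medians were −0.05 and −0.01 in XistΔm6A/11C and 0.08 to 0.19 in the clones. The list's median with Dox was −0.02. The count was 1 without clone 2C2 and 2 without C11. These were 1.92% and 3.85% of the list, beside 3.33% and 5.27% of all genes in the same fits.

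Among the clones 30 of the 52 pathway genes were called, 57.7% against 40.2% of all genes, with a median range of 0.30 in each. The 6 with the smallest adjusted p were Ppm1d (range 0.64 in log2, adjusted p 1.97e-08), Trp53bp1 (0.57, 2.52e-08), Pcna (0.51, 5.51e-07), Ephx1 (0.90, 6.23e-07), Sirt1 (0.35, 4.32e-05) and Pidd1 (0.61, 0.000372), on 2 libraries per clone in edgeR's quasi-likelihood test (Benjamini-Hochberg). Clone C1 was highest for Ppm1d, Trp53bp1 and Ephx1, clone 2C2 for Pcna and Sirt1, and clone C11 for Pidd1. Ppm1d, which encodes a phosphatase that turns the p53 response off, lies on chromosome 11, and it measured 36.3 to 58.2 CPM in the clones without Dox. Without clone C1 9 of the 52 were called, 17.3% beside 15.4% of all genes. Under DESeq2 16 were called, 30.8% beside 23.3%.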

How the data were processed

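The deposited values are counts of ChrRNA-seq reads per gene, which the authors made by aligning to mm10 (GRCm38) with Bowtie2 2.3.2 and STAR 2.4.2a, assigning reads to a parental genome and counting with featureCounts 1.5.2 over gene spans by strand. Total counts and the counts of either parent were used, and no other value of the files. Gene starts count from 0 in the files (12335 of 21161 shared names start 1 base before RefSeq, 722 at the same base), so printed starts are 1 higher.

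The 8 members, the lists and the tests were chosen with earlier results of these data known. Groups follow the labels. All genes were fitted with edgeR 4.0.16 (quasi-likelihood, TMM, filterByExpr with a minimum count of 10) in R 4.3.3, with Benjamini-Hochberg adjustment over all genes tested and a threshold of 0.05. The steps were tested on simulated data. DESeq2 1.42.0, other scaling, no filter, other sets of libraries, blocks and leaving out each replicate or clone were alternatives, and those run within the blocked fit of XistΔAprec were chosen after seeing the data. Clones are paired by the labels, and their correlations are in the report. The replicates of XistΔm6A/11C correlated at 0.691 by number, but are known to share only that number, so no block was used for them other than as an alternative.

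Shares are 129S counts over counts assigned to either parent, with Wilson intervals (scipy 1.17.1 and pandas 2.3.3 under Python 3.11.15; figures with matplotlib 3.10.9). Neighbours are other genes within 10 Mb averaging 50 or more counts (for shares, 20 or more assigned counts). The pseudocount for a single pair was 0.5 counts. All 8 members are named. Of the pathway list, up to 6 called genes per direction and comparison with the smallest adjusted p are named, and for Trp53 and Cdkn1a the 5 genes with the highest Pearson r of log2 CPM (prior count 2). Xist is named as the check of induction. Library totals ran from 18893447 to 36007145. No library or sample was left out.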

Additional observations from a re-analysis of the deposited data

Results flagged for a closer look

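The values of Bbc3 with and without Dox differed in opposite directions in the pairs of the 2 deletions, and no test called a change in either. All 3 XistΔAprec clones had a higher value with Dox, C1 and C11 by a log2 change of 0.07 each and 2C2 by 0.33, and both XistΔm6A/11C pairs a lower one, by −0.14 in replicate 1 and −0.64 in replicate 2. Those opposite signs in every pair of the 2 deletions are what drew attention to it. The WT pair, which has no deletion, was at a log2 change of −0.10, with a 95% counting interval of −0.62 to 0.42 that included 0. The difference between the deletions was −0.54 ± 0.364 in log2, and edgeR's quasi-likelihood test of that difference (Benjamini-Hochberg) did not call it, at an adjusted p of 1 (0.496 to 1 over 11 alternatives). With 42 to 125 counts per library, the 95% counting interval of the change included 0 in each clone and in replicate 1. Only that of replicate 2, −1.18 to −0.12, did not.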

How the results depend on the processing

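Of 440 values for the members' log2 changes under alternatives, 395 kept their direction and side of the threshold, 23 lost a call, 5 gained one and 17 changed direction, none of these 17 called in either setting. With clone as a block 38 of 40 were the same. In WT 16 of 16 stayed within the counting interval of the change. The cause of each change below was not tested, other than that leaving out libraries leaves fewer samples.

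For Dox in XistΔAprec the 3 genes called became 421 under DESeq2, which called 1 pathway gene, and 0 to 2 on leaving out a clone. With the replicate block, where clones are paired, there were 4384, with 3 members and 24 pathway genes. Within that blocked fit, under alternatives chosen after seeing the data, DESeq2 called 2643 genes and 13 pathway genes, and leaving out a clone gave 2152 to 4995 genes and 12 to 23 pathway genes. For XistΔm6A/11C the 0 genes became 2 with no filter on counts, 3 under DESeq2, 237 with replicate number as a block, 2 in 1 fit over 12 libraries and 1 on leaving out either replicate. For the difference between the deletions 0 became 2 under DESeq2 and 117 with the block. The XistΔm6A/11C replicates share only a number, so that block rests on it alone.

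Leaving out 1 clone or replicate gave 539 to 3845 genes, 1 to 2 members and 2 to 19 pathway genes between the lines without Dox. With Dox it gave 523 to 4452 genes, 1 to 3 members and 1 to 18 pathway genes, and a fit on the 5 libraries of that state alone gave 1157, 1 and 4. Among the clones it gave 2291 to 5296 genes, 1 to 6 members and 9 to 25 pathway genes, and DESeq2 gave 3530 genes and 16 pathway genes. Leaving out a XistΔm6A/11C replicate leaves 1 library per state, which is assumed to vary like the other groups.

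Some small changes that were not called changed direction. For Dox in XistΔm6A/11C, leaving out a replicate gave log2 changes of −0.12 to 0.20 for Cdkn1a, −0.25 to 0.0679 for Mdm2 and −0.39 to 0.44 for Phlda3, the last 0.0138 with the block. For the difference between the deletions Ccng1 was −0.0080 with TMM off chromosomes X, 1, 6, 8, 11 and 12, −0.0048 with the block and −0.12 to 0.11 on leaving out a clone or replicate, Trp53inp1 −0.29 to 0.32 and Phlda3 −0.70 to 0.13. Between the lines without Dox Phlda3 ran from −0.29 to 0.88 and Zmat3 from −0.0656 to 0.0592, and with Dox Cdkn1a from −0.0236 to 0.17, Phlda3 from −0.16 to 0.17 and Zmat3 from −0.13 to 0.0023.

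The median change in 129S share with Dox, 0.607 percentage points over the members, ran from −0.104 to 0.964 on leaving out a clone. That of Cdkn1a ran from −0.453 to 2.43, Mdm2 from −0.254 to 2.95 and Ccng1 from −0.306 to 0.0635. With neighbours taken within 5 Mb, or averaging 200 or more counts, 6 of 16 median shares and 11 of 16 median levels around the members moved by less than the spread between replicates, and the other 10 and 5 moved by more.

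Depth limits Bbc3, Phlda3 and the shares of Mdm2, whose counts are few. WT has 1 library per state and was not tested. Line and library set cannot be told apart, and no DNA was measured. Spans include introns, so unspliced and spliced RNA are summed.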
